A study of Mus musculus with 9 samples.

Results

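Tmem176a and Tmem176b are neighbouring mouse genes for small membrane proteins, each of which crosses the membrane several times. The 2 genes were found by their symbols in the platform annotation, each with 1 probe set, among the 22206 probe sets and 19505 named genes of the array. The pair was selected on its measured log2 values in these same arrays, so its levels, its differences between groups and its correlations are given as a description and carry no test.

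The proteins are related to the MS4A family, to which the B cell antigen CD20 belongs. They lie mostly in membranes inside the cell and act as cation channels. In mice they are known from dendritic cells, where they bear on antigen handling. TMEM176B is known as a brake on the NLRP3 inflammasome, the complex that activates caspase-1 and interleukin-1 beta, and in mice Tmem176b has also been tied to the development of cerebellar granule neurons.

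Signals were measured on Clariom S mouse arrays in the brain of male mice, 6 weeks old on arrival, with 3 arrays in each of 3 groups. The groups were ob/ob mice (C57BL/6JHamSlc-ob/ob) given VE, an extract of Vigna umbellata, at 100 mg/kg by gavage for 42 days, ob/ob mice given vehicle for 42 days, and wild-type mice (C57BL/6JHamSlc-+/+) given vehicle for 42 days. Mice of the ob/ob line lack working leptin in every cell. The labels do not say that the replicates were separate animals, so p-values cover only the spread between these arrays, and the series' design text mentions another tissue, white fat, and a lower dose besides; neither is analysed here.

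VE array 2 differed from the rest of the arrays as a whole. Its correlation with the other 8 arrays over all probe sets was 0.962 to 0.970, against 0.979 to 0.993 among those 8, and the SD of its values was 2.38, against 2.56 to 2.84 on the others. Differences of the pair that involve VE, and the counts of called list genes, are given with and without it. In whole brain, fewer cells of a type and less RNA per cell cannot be told apart.

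The genes lie head to head on chromosome 6. In RefSeq on GRCm38.p6, Tmem176a runs on the plus strand at chr6:48841483-48845364. Tmem176b runs on the minus strand at chr6:48833811-48845948, a span that takes in predicted transcripts and covers all 3882 bases of Tmem176a. The first annotated Tmem176a start lay 109 bases from the nearest Tmem176b start before it, at position 48841374. The stretch that the genes share at their starts is shown because both were lower on the same arrays. It is the Tmem176a window from 250 bases before the start to 50 after it, on the plus strand at chr6:48841233-48841532, with capitals from the Tmem176b start to the Tmem176a start.
Tmem176a: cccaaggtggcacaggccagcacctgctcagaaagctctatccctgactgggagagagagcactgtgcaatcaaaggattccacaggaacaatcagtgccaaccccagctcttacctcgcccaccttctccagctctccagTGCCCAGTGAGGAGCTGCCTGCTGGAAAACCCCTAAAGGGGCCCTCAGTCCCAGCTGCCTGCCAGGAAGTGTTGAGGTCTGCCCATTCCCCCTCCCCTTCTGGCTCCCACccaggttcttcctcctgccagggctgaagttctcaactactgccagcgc

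The window held 59.7% G and C, against a median of 53.0% over 32544 distinct windows of that length, and 2 CpG steps. Searched on both strands, the ETS core GGAAGT was found once, 45 bases before the Tmem176a start and between the start sites; 23.7% of all windows hold it. The TATA box TATAAA (13.6% of windows), the CCAAT box CCAAT (37.4%), the GC box GGGCGG (35.9%) and the AP-1 site TGANTCA (7.79%) were not among the letters of this window. These are matches of letters only.

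Tmem176b was lower in the brain of ob/ob mice given vehicle than in wild-type brain, with no overlap between the arrays. Its log2 signal was 9.27, 9.47 and 8.98 on the 3 ob/ob vehicle arrays, against 10.82, 10.82 and 10.78 on the 3 wild-type arrays. The highest ob/ob array lay 1.31 below the lowest wild-type array, while the arrays of a group differed among themselves by 0.49 in ob/ob vehicle and 0.04 in wild type. The mean was 9.24 ± 0.246 in ob/ob vehicle and 10.81 ± 0.0231 in wild type (SD, n = 3 each), a difference of -1.57 (limma SE 0.198), or 2.96-fold on the scale of signal.

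Tmem176a showed the same order of these groups. Its log2 signal was 7.44, 7.56 and 7.66 on the ob/ob vehicle arrays, against 9.04, 8.53 and 8.82 on the wild-type arrays. Again every ob/ob array stood below every wild-type array, by at least 0.87, which is more than the widest range within either group, 0.51 in wild type. The mean was 7.55 ± 0.110 in ob/ob vehicle and 8.80 ± 0.256 in wild type (SD, n = 3 each), a difference of -1.24 (limma SE 0.271), or 2.37-fold.

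**Figure D1:**
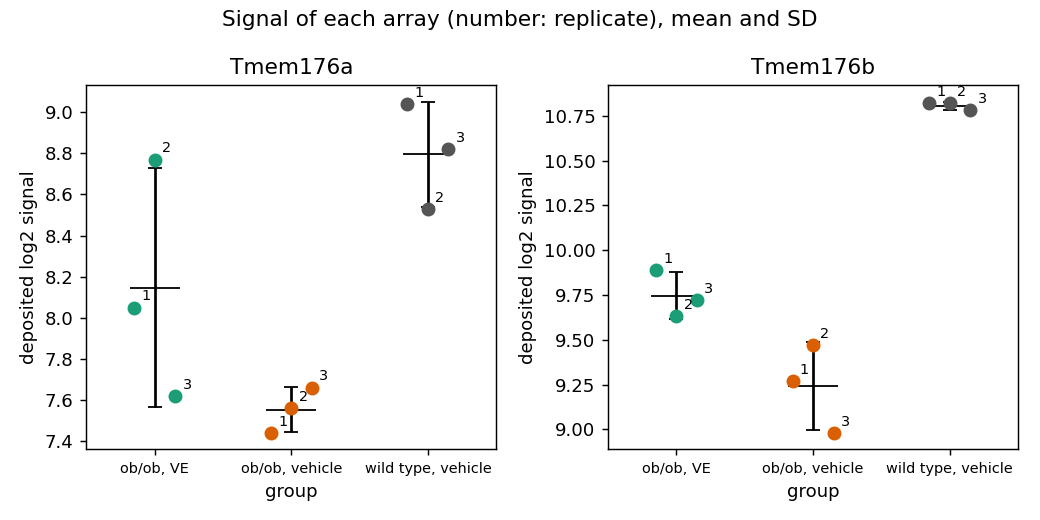
Deposited log2 signal (vertical axis) of Tmem176a and Tmem176b on each array, by group; numbers are the replicates, the bar is the mean and the whiskers are the SD (n = 3). All ob/ob vehicle arrays lie below all wild-type arrays for both genes, and VE array 2 stands at 8.77 for Tmem176a, among the wild-type values.

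Sorted by the difference of ob/ob vehicle minus wild type, Tmem176b was number 22 and Tmem176a number 86 from the lowest of 22206 probe sets. Both members were among the probe sets called (limma over all probe sets, adjusted p under 0.05), of which there were 281 or 1.27%: 119 higher and 162 lower. Every ob/ob vehicle array lay below every wild-type array for 17.5% of all probe sets, so that this separation alone was common on these arrays. The members were chosen on this comparison, and nothing is read from either count. Of the calls, 42.3% were higher with the deposited values, 60.4% of 631 after quantile normalization and 27.0% of 614 after centring each array on its median. The call of Tmem176a ended after quantile normalization, with the replicate number as a block, and without any single ob/ob vehicle or wild-type array. That of Tmem176b ended without ob/ob vehicle array 2 or 3 or wild-type array 2 or 3, settings at which limma called 0 probe sets in all (2872 to 3479 at unadjusted p under 0.05).

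Brighter probe sets were lower in ob/ob vehicle brain on the whole, so the pair is set here beside probe sets of like level. Tmem176a had a mean log2 signal of 8.17, among the 7402 probe sets of middle level (6.11 to 8.49), whose median difference was 0.07. The mean of Tmem176b was 9.93, among the 7402 brightest, whose median difference was -0.27. After quantile normalization those medians were 0.00 and -0.04, and the differences were -1.18 (limma SE 0.315) for Tmem176a and -1.36 (SE 0.193) for Tmem176b.

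**Figure D2:**
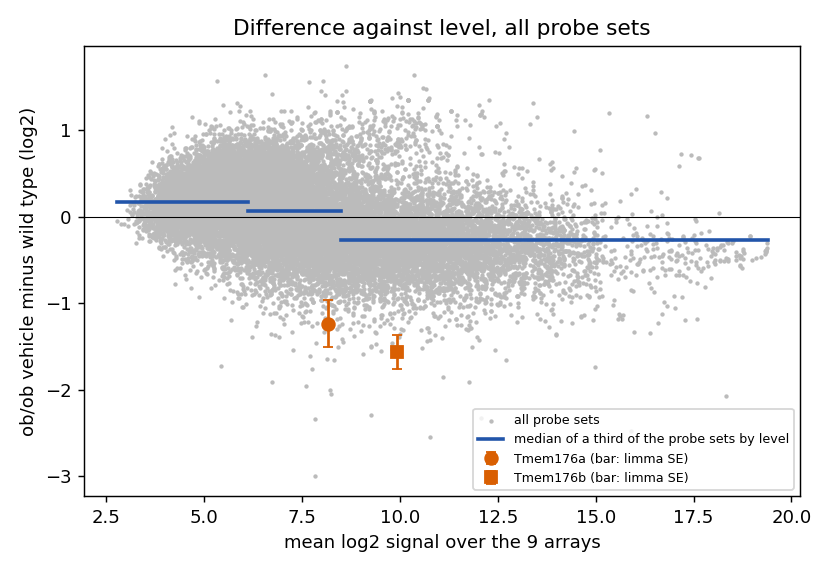
Difference of ob/ob vehicle minus wild type (log2, vertical axis) against the mean log2 signal over the 9 arrays, for all probe sets (grey) and the pair (orange, bars are the limma SE); blue lines are medians of 3 equal bins by level. The pair lies at -1.24 and -1.57, below the medians of its bins, 0.07 and -0.27.

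In ob/ob mice given VE, both genes averaged between the ob/ob vehicle and wild-type means, with unlike spread. Tmem176b was 9.89, 9.63 and 9.72 on the VE arrays, against 9.27, 9.47 and 8.98 in ob/ob vehicle. All 3 VE arrays lay above all 3 ob/ob vehicle arrays, by 0.16 at the nearest, and below all 3 wild-type arrays, by 0.89 at the nearest. The first of these separations was seen in 4.62% and the second in 11.5% of all probe sets. The VE mean was 9.75 ± 0.132 (SD, n = 3), which is 0.51 above ob/ob vehicle (limma SE 0.198) and -1.06 against wild type (SE 0.198). Since the comparisons share arrays, these differences are not independent of each other.

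Tmem176a was 8.05, 8.77 and 7.62 on the VE arrays, against 7.44, 7.56 and 7.66 in ob/ob vehicle. VE array 3 lay within the ob/ob vehicle range and VE array 2 within the wild-type range, so the VE arrays overlapped both groups. The VE mean was 8.15 ± 0.581 (SD, n = 3), with differences of 0.59 against ob/ob vehicle and -0.65 against wild type (limma SE 0.271 each). Without VE array 2, the array that stood apart, the mean of the remaining arrays was 7.84 and the differences were 0.28 and -0.96 (SE 0.215 each). Without VE array 3 they were 0.86 and -0.39 (SE 0.268 each). For Tmem176b the step without VE array 2 gave 9.80, 0.57 and -1.0 (SE 0.201 each). Neither member was among the 0.486% of probe sets called for VE against ob/ob vehicle (108 calls, 2.78% of them higher, against 18.5% of 324 after quantile normalization and 12.7% of 71 after centring), nor among the 0.0991% called for VE against wild type (22 calls, all lower). Without VE array 1, without VE array 2, or over the probe sets above the median level alone, Tmem176b was called in VE against wild type.

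Levels were therefore ordered wild type, VE, ob/ob vehicle by their means for both genes. For Tmem176b no neighbours in that order overlapped. For Tmem176a both neighbouring steps overlapped, and only the ends of the order were separate.

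The genes followed each other across the groups and not within them. Over the 9 arrays the correlation of Tmem176a with Tmem176b was Pearson r = 0.799 and Spearman rho = 0.728, given as a description, since the arrays share 3 groups and the pair was chosen on them. Without wild-type arrays 1 and 3, the arrays farthest from the median of Tmem176a, r was 0.615. Without VE array 2 it was 0.931. After the mean of its group was taken from each value, r was -0.285 and rho -0.378. Within ob/ob vehicle, array 3 had the highest Tmem176a signal and the lowest Tmem176b signal, and within VE array 2 did.

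**Figure D3:**
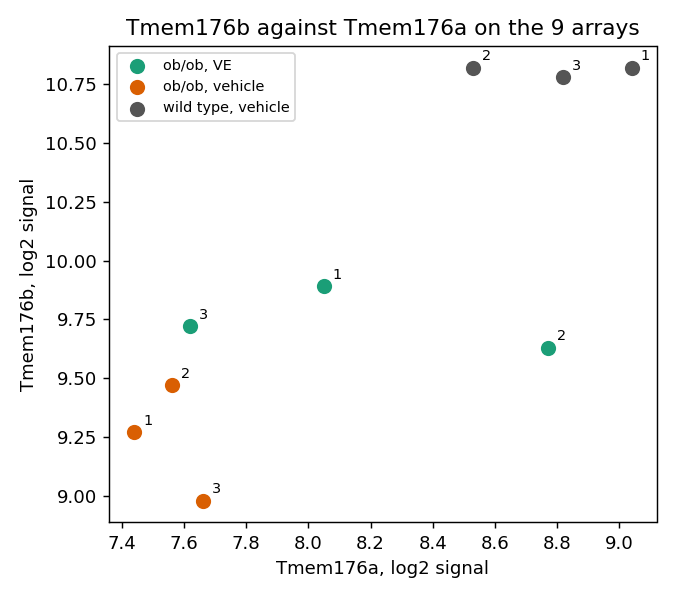
Log2 signal of Tmem176b (vertical axis) against Tmem176a (horizontal axis) on the 9 arrays, coloured by group, with replicate numbers. Wild-type arrays lie at the top right and ob/ob vehicle arrays at the bottom left, while VE array 2 has a Tmem176a signal of 8.77 at a Tmem176b signal of 9.63.

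Other genes that start head to head give a scale for that correlation. The array measured both genes of 527 pairs on opposite strands whose starts lay at most 300 bases apart, and the median r of those pairs over the 9 arrays was 0.236, with 0.242 for deviations from group means. A value at or above that of the Tmem176 pair was found in 29 pairs, the Tmem176 pair included, or 5.5%. The Tmem176 pair was chosen on these same values and was the 1 pair with both genes called. The share is therefore a description and no test. The strand and place of the probes within the overlapping genes are not given in the sources used here, and whether signal was shared between the probe sets was not tested.

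Of the 5 annotated genes on each side, 4 were on the array with a name. Gimap3, a GTPase of lymphocytes, differed by 0.03 (SE 0.246), and Gimap5, which lymphocytes need to survive, by 0.22 (SE 0.219), with limma adjusted p = 0.956 and 0.607 for ob/ob vehicle minus wild type. Aoc1, the gene of the histamine-degrading diamine oxidase, differed by 0.21 (SE 0.189, limma adjusted p = 0.567). Doxl1, which is named after that enzyme, differed by 0.05 (SE 0.245, limma adjusted p = 0.927). Within 200 kb there were 13 measured genes, a window chosen after the values were seen. Limma called 0 of them, with 2 higher at unadjusted p under 0.05, where 1.27% of all probe sets were called and 20.1% had such an unadjusted p, so that a count of 0 is near the background. Gimap4, another lymphocyte GTPase, named after its values were seen, was called as higher without VE array 2. There 13.4% of all probe sets were called in either direction. Their median difference was 0.26 (0.11 after quantile normalization), from 0.03 to 0.70. The mean log2 signals of the 13 genes were 3.85 to 7.25, lower than those of the pair, and the 7402 dimmest probe sets had a median difference of 0.17.

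Relatives of the pair in the MS4A family were measured at low signal. Of 16 measured members limma called 0, near the 1.27% called of all probe sets. At unadjusted p under 0.05, which 20.1% of all probe sets had in either direction, 4 were higher and 0 lower. Without VE array 2 limma called Ms4a1, Ms4a2 and Ms4a3 as higher, 3 of 16. There 13.4% of all 22206 probe sets were called in either direction, 1381 of them as higher. With the compared groups alone limma called 3 as higher, where 11.8% were called in either direction, 1205 probe sets as higher. After quantile normalization 0 were called, and 1 of the 16 had a mean above the median level of the array. The median difference was 0.32 (0.14 after quantile normalization), where all probe sets had 0.02. The largest values were those of Ms4a2, the beta chain of the IgE receptor, at 0.96 (SE 0.308, limma adjusted p = 0.121), Ms4a3, a gene of myeloid precursors, at 0.83 (SE 0.238, adjusted p = 0.0905), and Ms4a1, the gene of CD20, at 0.77 (SE 0.239, adjusted p = 0.108). Ms4a3 stood at 6.02, 6.52 and 5.97 in ob/ob vehicle, against 5.17, 5.41 and 5.45 in wild type.

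Of 11 measured inflammasome genes limma called 0 in ob/ob vehicle against wild type, again near the background of 1.27%. At unadjusted p under 0.05, which 20.1% of all probe sets had in either direction, 0 were higher and 2 lower. Without VE array 2, and with the compared groups alone, limma called P2rx7 and Nek7 as lower, 2 of 11. Of all probe sets, 13.4% and 11.8% were called in those settings, in either direction. After quantile normalization without VE array 2 it called P2rx7, where 1970 of 22206 probe sets were called. The median difference was 0.09 (-0.06 after quantile normalization). Nlrp3, the sensor that TMEM176B is known to restrain, differed by 0.09 (SE 0.224, limma adjusted p = 0.856). Casp1, its protease, differed by 0.02 (SE 0.267, adjusted p = 0.977), and Il1b, the cytokine it frees, by 0.07 (SE 0.239, adjusted p = 0.885). The mean log2 signals of Nlrp3 (4.91), Casp1 (7.05) and Il1b (6.62) were all below the median level of the array. The members with the smallest p were P2rx7, the ATP-gated channel upstream of the inflammasome, at -0.74 (SE 0.245, limma adjusted p = 0.127), and Nek7, a kinase that binds NLRP3, at -0.73 (SE 0.246, adjusted p = 0.136). Il18, a cytokine freed by caspase-1, was at -0.32 (SE 0.276, adjusted p = 0.539). P2rx7 stood at 6.35, 6.73 and 5.98 in ob/ob vehicle, against 7.0, 7.06 and 7.23 in wild type. These arrays did not overlap, as for 17.5% of all probe sets. The r of P2rx7 over the 9 arrays was 0.816 with Tmem176a and 0.804 with Tmem176b, while the medians over the 11 genes were -0.063 and -0.308.

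Markers of the dendritic cells in which the pair is known were mostly dim. Of 16 measured genes of antigen presentation and dendritic cells, 2 had a mean above the median level of the array. Limma called 0 of them, near the 1.27% called of all probe sets. At unadjusted p under 0.05, which 20.1% of all probe sets had, 2 were higher and 0 lower. The median difference was 0.15 (-0.03 after quantile normalization). Limma called 1, Xcr1, as higher without VE array 2, where 13.4% of all probe sets were called in either direction. Xcr1, a receptor of cross-presenting dendritic cells, was at 0.71 (SE 0.2, limma adjusted p = 0.086), Batf3, which those cells need, at 0.60 (SE 0.246, adjusted p = 0.195), and Ctss, a protease of antigen-presenting cells and microglia, at -0.53 (SE 0.253, adjusted p = 0.261). Cd74 was not analysed here, since no probe set carried that symbol.

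Genes of several brain cell types were lower along with the pair. Of all probe sets, 0.73% were called as lower and 20.1% had an unadjusted p under 0.05. In ob/ob vehicle against wild type, limma called as lower 3 of 13 astrocyte, 2 of 14 microglia, 2 of 12 myelin, 3 of 13 choroid plexus, 1 of 9 ependymal and 1 of 11 pericyte and fibroblast markers, and called none higher. Without ob/ob vehicle array 2 or 3, or wild-type array 2 or 3, all of these calls ended, since limma then called 0 of all probe sets (2872 to 3479 at unadjusted p under 0.05). Without VE array 2 the counts called as lower were 6 of 13 astrocyte, 7 of 14 microglia, 11 of 12 myelin, 4 of 13 choroid plexus and 2 of 9 ependymal markers. They were 2 of 11 pericyte and fibroblast, 2 of 9 granule neuron and 4 of 10 neuron markers, and 0 border macrophage and endothelial markers. There 13.4% of all 22206 probe sets were called in either direction, 1594 of them as lower. After quantile normalization the astrocyte count was 1 and the microglia count 5. The choroid plexus (3), myelin (2), ependymal (1) and pericyte and fibroblast (1) counts stayed the same. In that setting 631 of 22206 probe sets were called, 250 of them as lower. With the deposited values of all arrays, 0 border macrophage (8), endothelial (10), cerebellar granule neuron (9) and neuron (10) markers were called. At unadjusted p under 0.05, 0, 0, 1 and 0 of these were higher and 1, 1, 3 and 5 lower. The list medians were -0.58 for astrocytes (-0.35 after quantile normalization), -0.60 for microglia (-0.56), -1.08 for myelin (-0.83), -0.84 for choroid plexus (-0.72), -0.24 for ependyma (-0.35) and -0.09 for pericytes and fibroblasts (-0.19). Those of the other 4 lists were 0.21 for border macrophages (0.05), -0.34 for endothelium (-0.22), -0.45 for granule neurons (-0.33) and -0.61 for neurons (-0.28), where all probe sets had 0.02. The choroid plexus median ran from -0.40 without ob/ob vehicle array 2 to -1.74 over its members above the median level. The part that the amounts of these cells had in the lower signal of the pair was not tested.

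**Figure D4:**
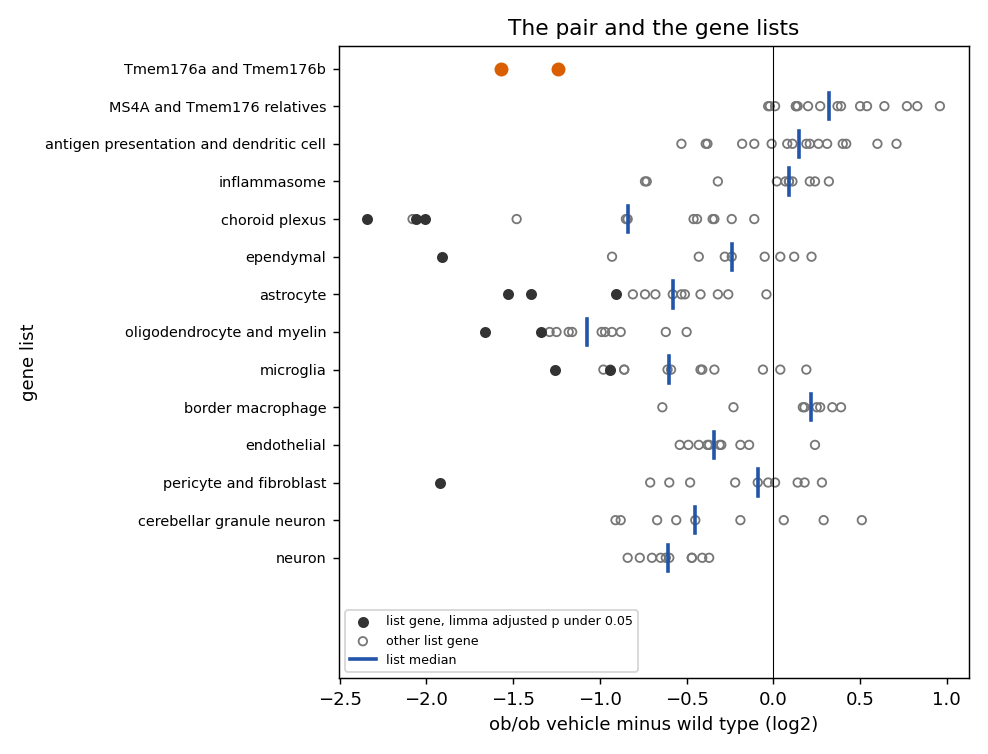
Difference of ob/ob vehicle minus wild type (log2, horizontal axis) for the pair (orange) and for each measured gene of the lists described here; filled points passed limma at an adjusted p under 0.05, open points did not, and blue bars are list medians. The pair lies at -1.24 and -1.57, and the list medians lie between -1.08 for myelin and 0.32 for the MS4A relatives.

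Among astrocyte markers, Sox9, a transcription factor of these cells, came closest to the pattern of the pair, with r = 0.868 to Tmem176a and 0.947 to Tmem176b over the 9 arrays. It stood at 9.80, 9.68 and 9.39 in VE, 9.31, 8.91 and 9.18 in ob/ob vehicle, and 10.80, 10.64 and 10.56 in wild type, so that the 3 groups did not overlap. Aqp4, the astrocyte water channel, fell by 0.91 in ob/ob vehicle against wild type (SE 0.199, limma adjusted p = 0.0467) and had r = 0.703 and 0.952. Gfap, the astrocyte filament, fell by 1.40 (SE 0.278, limma adjusted p = 0.0394) and had r = 0.825 and 0.821. Unlike Tmem176b, Gfap on the VE arrays (10.55, 11.17 and 9.93) overlapped ob/ob vehicle (10.91, 10.52 and 10.46). The mean log2 level of the 13 astrocyte markers was 10.80 to 11.60 over the VE arrays, 11.04 to 11.43 over ob/ob vehicle and 11.80 to 11.92 over wild type.

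Among microglia markers, C1qb, a subunit of complement C1q, fell by 0.94 (SE 0.191, limma adjusted p = 0.0401) with r = 0.692 to Tmem176a and 0.947 to Tmem176b. Olfml3, which microglia secrete, was at -1.26 (SE 0.206, limma adjusted p = 0.0257) with r = 0.717 and 0.872. Csf1r, the receptor that microglia need to survive, was at -0.86 (SE 0.201, limma adjusted p = 0.0553), and P2ry12, an ADP receptor of resting microglia, at -0.59 (SE 0.263, adjusted p = 0.229). Of the 14 microglia markers, 12 differed downward and 2 upward. The mean log2 level of the 14 microglia markers was 7.16 to 7.47 over the VE arrays, 7.04 to 7.26 over ob/ob vehicle and 7.6 to 7.88 over wild type.

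Among myelin markers, Fa2h, an enzyme of myelin lipid synthesis, was at -1.66 (SE 0.216, limma adjusted p = 0.0118) with r = 0.814 to Tmem176a and 0.945 to Tmem176b. Cldn11, a claudin that seals the myelin sheath, was at -1.34 (SE 0.300, limma adjusted p = 0.0497) with r = 0.530 and 0.827. Mbp, a main protein of myelin, was at -1.18 (SE 0.599, limma adjusted p = 0.287) with r = 0.0725 and 0.530, and Myrf, which drives myelin genes, at -0.97 (SE 0.253, adjusted p = 0.0711). On VE array 2, where Tmem176a was highest in its group, Mbp stood at 14.91, against 17.84 and 17.69 on the other VE arrays. The part of that array in the r of Mbp was not tested. The mean log2 level of the 12 myelin markers was 9.81 to 10.80 over VE, 10.11 to 10.56 over ob/ob vehicle and 10.96 to 11.82 over wild type.

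Among choroid plexus markers, Folr1, a folate receptor, fell by 2.06 (SE 0.324, limma adjusted p = 0.0236) with r = 0.702 to Tmem176a and 0.875 to Tmem176b. Ecrg4, a secreted peptide precursor, fell by 2.34 (SE 0.395, limma adjusted p = 0.0284), and Kl, the klotho gene, was at -2.01 (SE 0.422, adjusted p = 0.0434). Ttr, the carrier of thyroid hormone, was at -2.08 (SE 0.985, limma adjusted p = 0.259) with r = 0.17 and 0.5. It stood at 19.25, 15.41 and 18.68 in VE and at 19.31, 15.1 and 18.24 in ob/ob vehicle. The part of the low arrays in the r of Ttr was not tested. The mean log2 level of the 13 choroid plexus markers was 8.10 to 8.56 over VE, 7.61 to 8.51 over ob/ob vehicle and 8.64 to 9.58 over wild type. Cfap126, from the ependymal list, which beating cilia need, was at -1.91 (SE 0.319, limma adjusted p = 0.0284). Igf2, a growth factor of meninges and choroid plexus, was at -1.92 (SE 0.281, limma adjusted p = 0.0193). It was the 1 called marker of the pericyte and fibroblast list. Igf2 had r = 0.842 to Tmem176a and 0.889 to Tmem176b.

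Among markers of cerebellar granule neurons, the cells to which mouse Tmem176b has been tied, none passed the test with all arrays. Etv1, a transcription factor of maturing granule neurons, was at -0.88 (SE 0.219, limma adjusted p = 0.0649), Zic1, a granule neuron transcription factor, at -0.91 (SE 0.318, adjusted p = 0.142), and Pax6, a regulator of their precursors, at -0.56 (SE 0.240, adjusted p = 0.213). Their r was 0.749, 0.873 and 0.823 with Tmem176a and 0.788, 0.691 and 0.723 with Tmem176b, while the median over the 9 markers was 0.097 and 0.324. Cbln3, a granule neuron gene of the cerebellin family chosen after its values were seen, went the other way, at 0.51 (SE 0.225) with r = -0.567 and -0.731. Of the general neuron markers, Gad1, which makes GABA, was at -0.84 (SE 0.224, limma adjusted p = 0.0761) and Rbfox3, a neuronal splicing factor, at -0.77 (SE 0.210, adjusted p = 0.0811). Eno2, a neuronal enolase, was at -0.70 (SE 0.238, adjusted p = 0.136). The r of Gad1, Rbfox3 and Eno2 was 0.761, 0.821 and 0.691 with Tmem176a and 0.645, 0.919 and 0.803 with Tmem176b. Over the 10 neuron markers the median was 0.26 and 0.44.

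In the remaining lists, Enkur, a cilium protein of ependyma, was at -0.93 (SE 0.307, limma adjusted p = 0.127), and Rgs5, a pericyte marker, at -0.71 (SE 0.268, adjusted p = 0.168). Both were called as lower without VE array 2. Vtn, the vitronectin gene of pericytes, was at -0.48 (SE 0.187, limma adjusted p = 0.18). Upward differences were found in 4 of the 11 pericyte and fibroblast markers and in 3 of the 9 ependymal markers. Mfsd2a, a lipid transporter of the blood-brain barrier, was at -0.54 (SE 0.244, limma adjusted p = 0.235), and Cldn5, its tight junction claudin, at -0.43 (SE 0.202, adjusted p = 0.252). Mrc1, the mannose receptor of border macrophages, was at -0.64 (SE 0.280, limma adjusted p = 0.227), while Stab1, a scavenger receptor, was at 0.39 (SE 0.264, adjusted p = 0.431).

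Correlation over the 9 arrays set Tmem176b nearer to the astrocyte, myelin and microglia lists than Tmem176a. The median r with Tmem176b was 0.678 for astrocyte, 0.710 for myelin and 0.661 for microglia markers, against 0.00 over all other probe sets. With Tmem176a the medians were 0.412, 0.359 and 0.452, against -0.08. For deviations from group means, the medians with Tmem176b were 0.228, 0.113 and 0.164, and with Tmem176a -0.586, -0.791 and -0.425. VE array 2 had the highest Tmem176a signal of the VE group and the narrowest spread of all arrays. Its part in those negative values, and in the gap between the members over the 9 arrays, was not tested. The median r over the 9 arrays was also higher with Tmem176b for neuron (0.44 against 0.26) and endothelial markers (0.39 against 0.25). It was also higher for granule neurons (0.32 against 0.10), choroid plexus (0.46 against 0.43) and ependyma (0.37 against 0.28). For pericytes and fibroblasts (0.28 against 0.36) and border macrophages (-0.42 against -0.12) it was lower. The comparison with all other probe sets was not matched for level.

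Many probe sets followed the pair about as closely as its members followed each other. Of 22204 other probe sets, 229 had r over 0.8 with Tmem176a and 780 with Tmem176b, while 421 and 371 had r under -0.8. In the order of r with Tmem176b, Tmem176a was number 788 of 22205, and in the order of r with Tmem176a, Tmem176b was number 234.

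The genes most like the pair were those with the highest mean of their r with each member, among named probe sets above the median level, predicted genes left out. First was Babam1, a scaffold of deubiquitinating complexes in DNA repair, with r = 0.921 to Tmem176a and 0.953 to Tmem176b. Babam1 stood at 10.68, 10.66 and 10.43 in VE, 10.10, 10.18 and 10.13 in ob/ob vehicle, and 11.25, 11.01 and 11.09 in wild type. As with Tmem176b, its 3 groups were separate and VE lay between. Then came Abhd4, a lipase of N-acyl phospholipids (r = 0.919 and 0.931), Eif4g3, a scaffold of translation initiation (0.944 and 0.900), and Trim8, a ubiquitin ligase (0.900 and 0.942).

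Tom1l2, an adaptor of endosomal sorting (0.894 and 0.946), Fkbp1b, which binds ryanodine receptors (0.890 and 0.946), Hcfc1r1, a regulator of the transcriptional coregulator HCF1 (0.874 and 0.956), and Cuta, tied to the anchoring of acetylcholinesterase (0.843 and 0.979), completed the 8. Hcfc1r1 had the difference nearest to that of Tmem176b, -1.59 (SE 0.207) in ob/ob vehicle against wild type. Its signal was 8.48, 8.39 and 8.15 in ob/ob vehicle, against 10.02, 9.65 and 10.12 in wild type. Abhd4 differed by -1.31 (SE 0.225), close to Tmem176a at -1.24. The other 6 differed by -0.98 to -0.65.

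The genes that ran most opposite to the pair were Sfi1, a centrin-binding protein (r = -0.878 to Tmem176a and -0.926 to Tmem176b), and B3galnt2, a glycosyltransferase of dystroglycan (-0.885 and -0.842). Mrgprg, a receptor of the Mas-related family (-0.760 and -0.962), and Krtap4-2, a hair keratin-associated gene (-0.879 and -0.827), followed. Sfi1 stood at 9.40, 9.11 and 9.23 in ob/ob vehicle, against 8.45, 8.52 and 8.44 in wild type, a difference of 0.78 (SE 0.187). Of the 8 most similar genes, 4 were again among the first 8 of 9440 candidates by Spearman rho, 3 after quantile normalization, 4 without VE array 2 and 0 for deviations from group means. Among the first 100 (1.06%) there were 7, 7, 8 and 3 of them in the same order of settings.

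**Figure D5:**
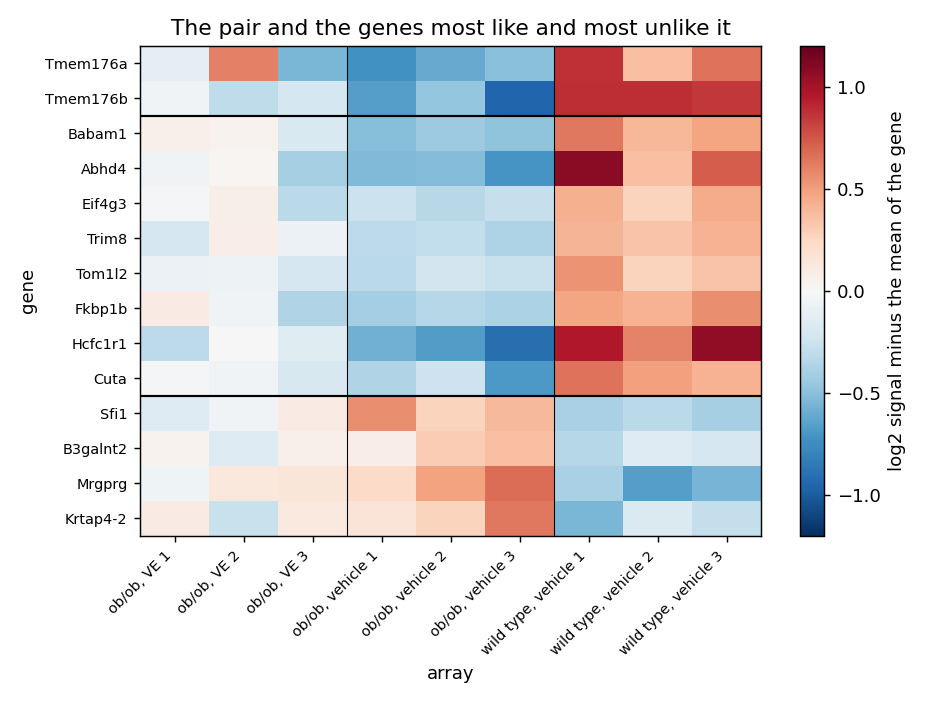
Log2 signal minus the mean of each gene over the 9 arrays (colour), for the pair, the 8 genes with the highest and the 4 with the lowest mean r to it (rows) on each array (columns). The 8 are high on wild-type arrays and low on ob/ob vehicle arrays, and the 4 show the opposite, with the VE mean between the other group means in each of these 12 rows.

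For deviations from group means, no gene can have a mean r above 0.598 with both members, given their r of -0.285 to each other. The highest found was 0.571, for Wdr81, an endosomal protein with r = 0.443 to Tmem176a and 0.699 to Tmem176b. Next were Rbmx, a nuclear RNA-binding protein (0.530 and 0.583), and Med13l, a Mediator subunit (0.768 and 0.345). The remaining 5 of the first 8 were Fam102a, Btbd6, Nwd2, Asb13 and Sgip1, with mean r of 0.538 to 0.555. The lowest was Agbl5, an enzyme that trims tubulin tails (-0.544 and -0.638), followed by Cenpp, Shprh and Pramel39, with mean r of -0.575 to -0.568. Wdr81 differed by -0.05 (SE 0.196) and Rbmx by -0.10 (SE 0.204) in ob/ob vehicle against wild type, so that likeness within groups named other genes than likeness across them.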

How the data were processed

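Total RNA of 9 brain samples was hybridised to 1-colour Clariom S arrays. The deposited log2 signals, 1 per probe set, were normalized by the authors with SST-RMA (a multi-array summary) in their Transcriptome Analysis Console software, version 4.0.2 by the series' design text. Scanner files were not used here. Symbols came from the platform annotation (19572 probe sets with 1 symbol, 2634 with none), coordinates and promoter windows from RefSeq on GRCm38.p6.

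The 3 group means were fitted to the deposited values by limma (version 3.58.1, under R 4.3.3), all 9 arrays sharing 1 spread per probe set. Moderation was empirical Bayes (prior df 7.03, residual df 6), and p-values were adjusted by Benjamini-Hochberg across all 22206 probe sets. Only 3 arrays per group limit the precision. Correlations were computed in Python 3.11.15, and for a gene with several probe sets the brightest was used. The pair, the gene lists and the alternatives were chosen with earlier results of these data known. Named were the pair, its 5 neighbours on each side, the 8 most and 4 least similar genes, and in each list the called members, up to 3 with the smallest p and preset key genes; 1 list and 1 motif are not reported here. Scripts were tested on simulated data.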

Additional observations from a re-analysis of the deposited data

How the results depend on the processing

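Over 16 alternatives the difference of ob/ob vehicle minus wild type ran from -1.38 to -1.12 for Tmem176a and from -1.68 to -1.36 for Tmem176b. After quantile normalization Tmem176b stood at -1.36, at -1.38 when VE array 2 was also left out (an alternative added after seeing the data), and at -0.79 in VE minus wild type. The correlation within the pair was 0.735 to 0.931 with single arrays left out, and -0.285 for deviations from group means. Called probe sets in ob/ob vehicle against wild type (281) numbered 614 after centring, 631 after quantile normalization, 1970 after it without VE array 2, 2626 with the compared groups alone, and 4457 by the study's rule of unadjusted p under 0.05 with a fold over 1.1; with single arrays left out they ran from 0 to 2975. There were 2975 without VE array 2, 98 without VE array 3, 21 without ob/ob vehicle array 1, 20 without wild-type array 1, and 0 without ob/ob vehicle array 2 or 3 or wild-type array 2 or 3. In VE against ob/ob vehicle (108) there were 71 after centring, 324 after quantile normalization, 418 after it without VE array 2, 180 above the median level, 225 with trend and robust moderation, 0 with the compared groups alone and 2962 by the study's rule, and 0 to 403 with single arrays left out (403 without VE array 2, 16 without wild-type array 1, 0 without any ob/ob vehicle array or wild-type array 2 or 3). In VE against wild type (22) there were 7 after centring, 0 after quantile normalization, 49 above the median level, 10 with trend and robust moderation, 0 with the compared groups alone and 2707 by the study's rule, and 0 to 158 with single arrays left out (158 without VE array 1, 73 without VE array 2, 0 without VE array 3, any ob/ob vehicle array or wild-type array 2 or 3). Where limma called 0, unadjusted p under 0.05 gave 1818 to 3479. The cause of these shifts was not tested. With the replicate number as a block, calls were 251, 144 and 2, and the block ended the call of Tmem176a. Deviations of same-numbered arrays had r of -0.0323 to 0.331, over 0.1 in 4 of 9 pairs. These values alone do not show whether the numbers pair the arrays, which was not tested.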
